A study of Mus musculus with 12 samples.

Results

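The genes of antigen presentation by the major histocompatibility complex (MHC, named H2 in the mouse) were described in whole kidney tissue of 12 mice. The members were the rows of the expression table whose gene name starts with H2-, together with B2m, Tap1, Tap2, Tapbp, Erap1, Nlrc5, Cd74 and Ciita. They numbered 42 of the 22053 rows. The mice fell into 3 groups of 4. Control mice ate a diet without adenine from 8 to 16 weeks of age and had PBS injected i.p. CKD mice, a model of chronic kidney disease, ate the same diet with 0.2% adenine from 8 to 16 weeks of age and also had PBS injected. CKD+Fe mice ate the adenine diet at the same ages and were given iron dextran i.p. each week at 0.5 g/kg. The mice were C57BL/6, so no group carried a transgene or deletion, and every library came from a whole kidney rather than from sorted cells. The mice are named by the numbers in their labels.

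MHC class I molecules, a heavy chain paired with beta-2-microglobulin, are carried by nearly all nucleated cells and display peptides made in the cytosol to CD8 T cells. The peptides are pumped into the endoplasmic reticulum by the Tap1-Tap2 transporter, trimmed by Erap1 and loaded with the help of tapasin (Tapbp). MHC class II molecules are carried mainly by macrophages, dendritic cells and B cells and display peptides from the endocytic route to CD4 T cells. Their chains travel with the invariant chain (Cd74), the DM molecule exchanges its remnant for peptide, and the DO molecule restrains DM. The coactivator Ciita switches on class II genes and Nlrc5, a related protein, does so for class I genes. C57BL/6 mice have the b haplotype of H2, in which the alpha chain that would partner H2-Eb1 is not made.

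The known promoter elements of these genes are shown in the RefSeq windows (GRCm38.p6, 250 bases before to 50 after the transcription start) of 5 members that stand for the main patterns below. They are a class II chain (H2-Aa), a class II loading gene (H2-DMb1), a classical class I heavy chain (H2-K1), its shared light chain (B2m) and the class I heavy chain gene that was lower in CKD (H2-T22). Capitals mark matches on either strand to 4 elements. They are the Y box core CCAAT, the X box (CC, any 2 bases, G, any 2 bases, AC, any base, GATG), the core of the interferon-stimulated element (GAAA, any 2 bases, GAAA) and the class I enhancer A, the run of 10 capitals in the H2-K1 window. Among the 67 matches in windows of members, 0 pairs of different elements overlapped. Each window is written 5′ to 3′ on the strand of the gene.
H2-Aa (chr17:34287774-34288073, minus strand): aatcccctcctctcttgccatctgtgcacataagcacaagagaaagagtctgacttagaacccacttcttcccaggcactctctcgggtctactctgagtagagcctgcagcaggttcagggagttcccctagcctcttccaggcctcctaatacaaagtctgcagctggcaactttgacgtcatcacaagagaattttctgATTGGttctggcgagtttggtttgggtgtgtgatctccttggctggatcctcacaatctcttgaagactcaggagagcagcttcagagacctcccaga
H2-DMb1 (chr17:34152941-34153240, plus strand): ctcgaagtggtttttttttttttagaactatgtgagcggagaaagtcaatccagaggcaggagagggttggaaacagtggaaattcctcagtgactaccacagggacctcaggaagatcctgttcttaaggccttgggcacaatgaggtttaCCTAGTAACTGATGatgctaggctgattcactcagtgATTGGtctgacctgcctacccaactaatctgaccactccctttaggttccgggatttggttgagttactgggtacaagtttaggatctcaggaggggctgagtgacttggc
H2-K1 (chr17:34000298-34000597, minus strand): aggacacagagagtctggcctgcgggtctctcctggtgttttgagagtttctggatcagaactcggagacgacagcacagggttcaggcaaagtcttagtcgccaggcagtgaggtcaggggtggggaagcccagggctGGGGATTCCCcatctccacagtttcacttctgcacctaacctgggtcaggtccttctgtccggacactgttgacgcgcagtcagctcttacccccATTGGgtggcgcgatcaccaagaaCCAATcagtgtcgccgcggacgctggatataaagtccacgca
B2m (chr2:122147437-122147736, plus strand): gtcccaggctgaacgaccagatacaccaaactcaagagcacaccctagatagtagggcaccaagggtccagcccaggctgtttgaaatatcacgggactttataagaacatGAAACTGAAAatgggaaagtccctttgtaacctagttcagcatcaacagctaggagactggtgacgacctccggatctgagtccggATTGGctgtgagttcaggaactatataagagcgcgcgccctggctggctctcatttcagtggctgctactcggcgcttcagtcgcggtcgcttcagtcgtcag
H2-T22 (chr17:36042693-36042992, minus strand): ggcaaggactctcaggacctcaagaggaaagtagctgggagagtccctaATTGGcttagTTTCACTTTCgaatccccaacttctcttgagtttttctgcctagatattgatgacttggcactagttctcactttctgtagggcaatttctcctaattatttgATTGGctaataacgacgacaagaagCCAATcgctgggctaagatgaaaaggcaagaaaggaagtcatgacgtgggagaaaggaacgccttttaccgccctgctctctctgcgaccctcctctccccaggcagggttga
The table of promoters held 38 windows of 35 members. The Y box core was in 33 of the 38 (86.8%), against 37.4% of 32851 promoter windows of all genes. The full X box was in 6 (15.8%), against 0.289% of all windows. Those windows belonged to H2-DMb1, H2-D1, H2-Q4, H2-Q6, H2-Q7 and H2-M3. The pattern allowed no mismatch. The H2-Eb1 window held a stretch that differs from it only in the first base and was not counted. A window without a match can therefore still hold an X box of another spelling. Enhancer A was in 5 windows, of H2-K1 (2 overlapping windows), H2-D1, H2-Q6 and H2-Q7, and the interferon-stimulated element in 4, of B2m, Erap1, H2-T23 and H2-T22. Both of these were found in class I windows and in 0 of 9 class II windows. They stood in 0.107% and 3.44% of all windows. The H2-T22 window, whose gene was lower in CKD, and the B2m window, whose gene was higher, both held the Y box core and the interferon-stimulated element. A match is a description of letters and says nothing of binding.

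Of the 42 members, 37 lay on chromosome 17 and 29 reached 1 FPKM (reads of a gene per kilobase of its length, scaled to the mapped reads of the library) in at least 4 of the 12 mice. Those 29 were tested. They comprised 18 of the 30 class I members, 10 of the 11 class II members and H2-Ke6. H2-Ke6 (also named Hsd17b8) encodes a dehydrogenase that lies in the complex but has no part in antigen presentation. The class I members were both classical heavy chains, 10 of 22 non-classical heavy chains and all 6 genes of loading and control. At 0.5 FPKM the number was 30, and 22 members reached 1 FPKM in all 12 mice. H2-Q10, H2-M2, H2-Q2, Ciita, H2-DMb2, H2-Oa and H2-Ob reached 1 FPKM in fewer than 4 control mice (H2-Q10 and H2-M2 in none), so these 7 were tested only through adenine-fed mice. Of these, 5 were among the members called higher in CKD, and the counts and medians over tested members include them. Of the 13 members that were not tested, 12 were non-classical class I genes and the other was H2-Eb2, a class II beta chain gene with at most 0.827 FPKM. H2-M5 reached at most 0.465 FPKM and H2-M1 at most 0.186 FPKM. H2-M10.3, H2-M10.4, H2-M10.6 and H2-M11 were listed at 0 in all mice.

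Expression was led by few members. In control mice B2m had 592 ± 107 FPKM (SD, n = 4), followed by Cd74 with 369 ± 90.5 FPKM. H2-Aa, the class II alpha chain of I-A, H2-K1, H2-D1, H2-Eb1 and H2-Ab1 followed with group means from 149 to 198 FPKM, and their ranges overlapped. The master regulators were scarce, with 2.20 ± 0.685 FPKM for Nlrc5 and 0.717 ± 0.364 FPKM for Ciita. Every library also held transcripts of kidney cells, and Umod of the thick ascending limb had at least 1159 FPKM in each. Other kidney genes were lower in CKD, as given below. Fewer cells of a type and less RNA per cell cannot be told apart in such tissue.

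Facts of the libraries bear on all results. Kap, a proximal tubule gene, took 10.6% to 12.7% of all FPKM in control mice and 0.188% to 1.70% in the other mice, and the median log2 fold change of all 13148 genes tested was 0.50 in CKD against control. After median-of-ratios rescaling that median was -0.03. Counts of calls against control are therefore also given after rescaling, and members whose call changed are named. Control mouse 042301, CKD mouse 110310 and CKD+Fe mouse 042702 stood apart, with 595, 805 and 442 genes at least 2-fold from the other mice of their group, against 41 to 225 in the other mice.

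**Figure D1:**
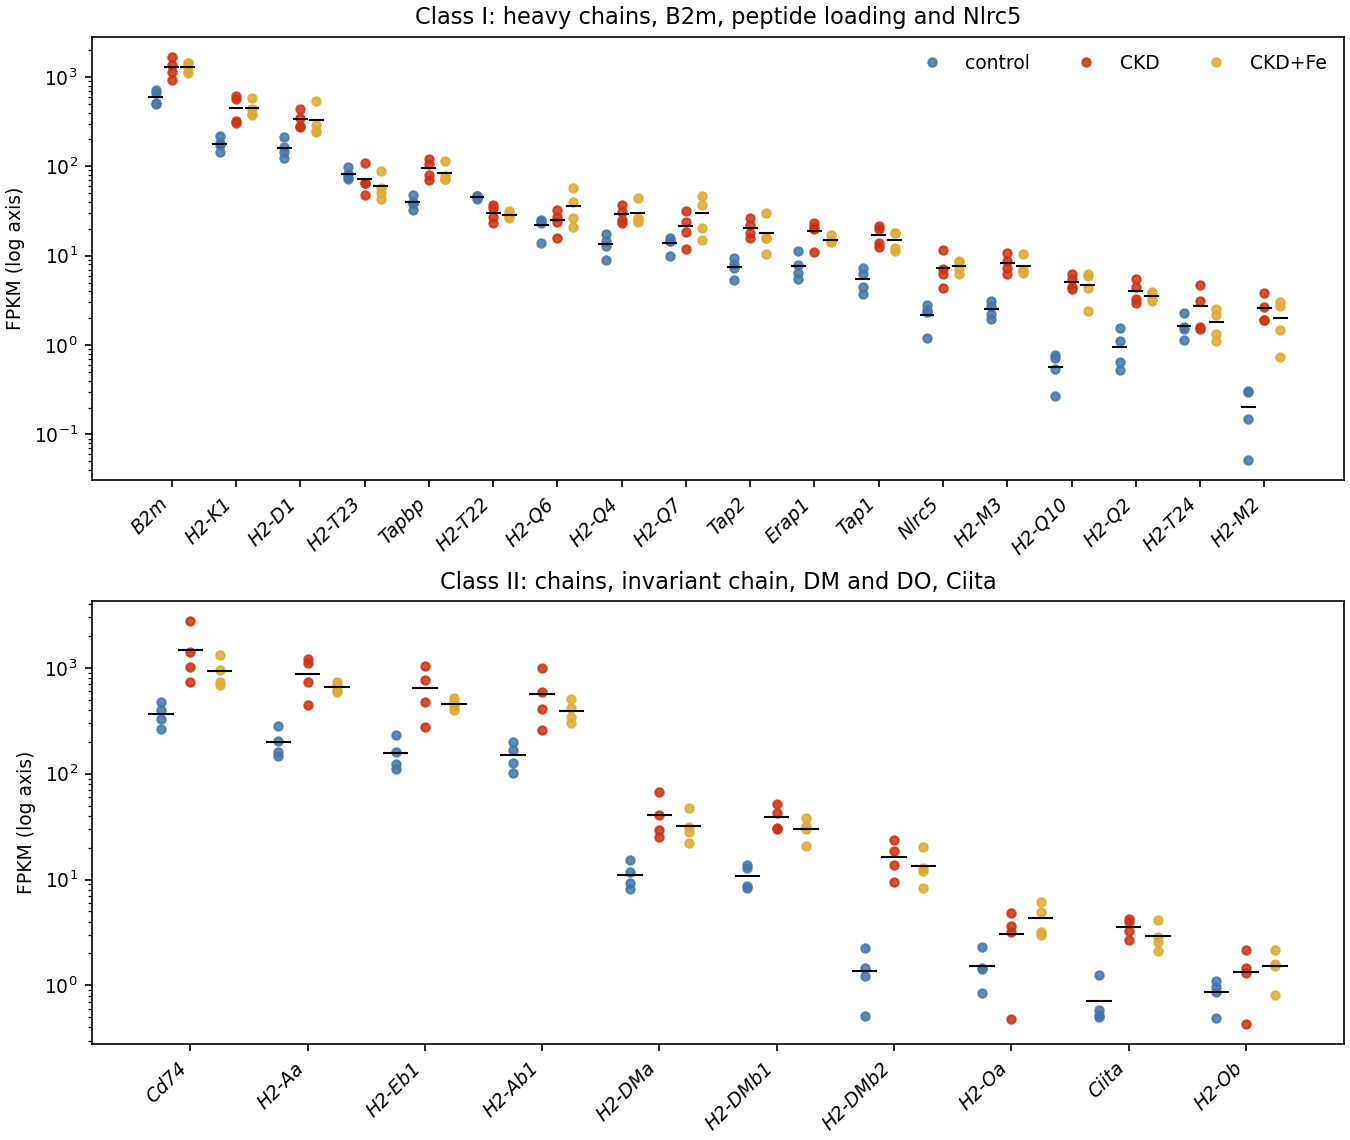
FPKM of the 18 class I (top) and 10 class II (bottom) members tested, on a log axis, with 1 point per mouse and a black line at the mean of 4 mice. Points of control mice lie under those of both adenine-fed groups for most members, and H2-T22 shows the opposite order.

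To see how CKD changed antigen presentation genes, CKD mice were compared with control mice. Transcripts of the class II chains, their invariant chain and the DM genes were higher in CKD, and so were the classical class I chains and the 6 class I members of loading and control. Of the 29 members tested, 21 were higher and 2 lower (limma on log2(FPKM + 1), Benjamini-Hochberg adjusted p under 0.05). Adding 1 draws the log2 fold changes of members near or below 1 FPKM toward 0, also within the medians below. The same test called 54.6% of all genes higher and 13.3% lower. Class II had 8 of 10 members higher and 0 lower, with a median log2 fold change of 1.76. Class I had 13 of 18 higher and 1 lower, with a median of 1.19. After rescaling, the medians were 1.16 for class II and 0.61 for class I, with 8 class II members higher and 10 class I members higher and 2 lower, against 27.2% of all genes higher and 31% lower. In 20 of the 29 members every CKD mouse lay above every control mouse, as in 44.6% of all genes, and in 2 every CKD mouse lay below, as in 10.5%.

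The class II chains were higher in every CKD mouse. H2-Aa (chromosome 17, 34282744 to 34287823 on GRCm38) had 147, 161, 280.0 and 203 FPKM in control mice, 736, 1208, 1111 and 449 FPKM in CKD mice, and 593, 734, 693 and 623 FPKM in CKD+Fe mice. No adenine-fed mouse reached down to the control range, and within CKD mouse 120102 was lowest. CKD exceeded control by 2.09 ± 0.28 on the log2 scale (SE, adjusted p = 2.9e-05), and 1.47 after rescaling. H2-Ab1, the beta chain that pairs with it, had 102, 128, 201 and 166 FPKM in control mice, 405, 593, 994 and 259 FPKM in CKD mice and in CKD+Fe mice 505, 420.3, 347 and 304 FPKM. The highest value was in CKD mouse 110310, and the control mice did not overlap with either other group. Its log2 difference from control was 1.78 ± 0.34 (adjusted p = 0.000454). H2-Eb1 had 111, 124, 233 and 159 FPKM in control mice, 477, 765, 1039 and 277 FPKM in CKD mice and 478, 518, 435 and 401 FPKM in CKD+Fe mice. Mouse 110310 was again highest and the control mice were lowest, with a log2 fold change of 1.91 ± 0.34 (adjusted p = 0.000248).

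Class II loading genes were also higher, apart from those of DO. Cd74 had 268, 332, 479 and 398 FPKM in control mice, 1021, 1400.1, 2760 and 742 FPKM in CKD mice and 1324, 947, 743 and 688 FPKM in CKD+Fe mice. CKD mouse 110310 stood far above the others, and the control mice lay below all adenine-fed mice. CKD exceeded control by 1.86 ± 0.35 on the log2 scale (adjusted p = 0.000372) and 1.63 without the 3 mice that stood apart. H2-DMa had 8.14 to 15.3 FPKM in control mice, 24.99 to 67.7 FPKM in CKD mice and 22.2 to 46.9 FPKM in CKD+Fe mice. H2-DMb1 had 8.26 to 13.8 FPKM, 29.9 to 52.3 FPKM and 20.6 to 38.0 FPKM in the same order of groups. These genes of the DM alpha and beta chains had log2 fold changes in CKD of 1.71 ± 0.30 and 1.73 ± 0.23. H2-DMb2, another beta chain gene, had 0.517, 1.44, 1.22 and 2.27 FPKM in control mice, 9.38, 23.4, 18.7 and 13.7 FPKM in CKD mice, and in CKD+Fe mice 20.1, 12.1, 12.9 and 8.31 FPKM. The log2 fold change of 2.85 ± 0.30 was the highest of the 29 (adjusted p = 4.13e-06), and all control mice were below all others. H2-DMb1 shared 22.7% of its 50-base windows with H2-DMb2, so reads of this length could be split between the pair.

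The DO genes did not pass the test. H2-Oa, the alpha chain, had 0.850, 1.46, 2.31 and 1.43 FPKM in control mice and 3.61, 3.18, 4.85 and 0.476 FPKM in CKD mice. H2-Ob, the beta chain, had 0.492, 1.10, 0.973 and 0.872 FPKM in control mice and 2.14, 1.44, 1.30 and 0.431 FPKM in CKD mice. In both genes CKD mouse 120102 was below every control mouse and the other 3 CKD mice were above every control mouse. The log2 fold changes were 0.54 ± 0.36 (adjusted p = 0.189) and 0.28 ± 0.23 (adjusted p = 0.292). Without mouse 120102 both passed, at 0.97 (adjusted p = 0.00388) and 0.50 (adjusted p = 0.0471).

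The class I light and heavy chains were higher by a smaller step. B2m (chromosome 2, 122147686 to 122153083) had 495, 508, 709.6 and 655 FPKM in control mice, 1148, 1681, 1368 and 929 FPKM in CKD mice and 1452, 1179.8, 1433 and 1116 FPKM in CKD+Fe mice. The control mice lay below all adenine-fed mice, and CKD exceeded control by 1.10 ± 0.20 on the log2 scale (adjusted p = 0.000345). H2-K1 had 146, 172, 216 and 183 FPKM in control mice, 326, 564, 609.9 and 309.6 FPKM in CKD mice and 580.5, 383, 437 and 379 FPKM in CKD+Fe mice. CKD mice 022301 and 110310 were the highest, and no CKD mouse overlapped the controls (1.28 ± 0.23 on the log2 scale, adjusted p = 0.00032). H2-D1 had 125, 147, 212 and 163 FPKM in control mice, 284, 347, 439.6 and 278 FPKM in CKD mice and 537, 245, 293 and 248 FPKM in CKD+Fe mice, and the control mice were again lowest. CKD exceeded control by 1.06 ± 0.25 on the log2 scale (adjusted p = 0.00216). After rescaling B2m (0.48, adjusted p = 0.0532) and H2-D1 (0.44, adjusted p = 0.138) no longer passed, and H2-K1 did (0.66, adjusted p = 0.0255).

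All 6 genes of class I loading and control were higher in CKD. Tap1 had 3.70 to 7.30 FPKM in control mice and 12.5 to 21.8 FPKM in CKD mice, with a log2 fold change of 1.49 ± 0.23. Tap2 had 5.32 to 9.44 FPKM and 15.6 to 26.5 FPKM (1.33 ± 0.26 on the log2 scale). Tapbp had 32.4 to 48.1 FPKM and 71.1 to 121.8 FPKM (1.22 ± 0.20). Nlrc5 had 1.21, 2.48, 2.78 and 2.33 FPKM in control mice and 6.27, 11.5, 7.19 and 4.34 FPKM in CKD mice, and its groups did not overlap. Its log2 fold change was 1.34 ± 0.24 (adjusted p = 0.000266), and under quantile normalization it was not called (0.53, adjusted p = 0.0786). Ciita had 0.497, 0.588, 0.523 and 1.26 FPKM in control mice, 4.0001, 4.26, 3.24 and 2.71 FPKM in CKD mice, and in CKD+Fe mice 4.12, 2.59, 2.88 and 2.12 FPKM. Control mouse 042310 stood above the other controls but below all other groups, and CKD exceeded control by 1.41 ± 0.19 on the log2 scale (adjusted p = 2.7e-05). Erap1, H2-Q2 and H2-T24 were the 3 members lowest in CKD mouse 110310 within their group. The FPKM of Erap1 were 7.89, 6.46, 5.47 and 11.2 in control mice and 23.05, 19.8, 11.1 and 20.99 in CKD mice, so that mouse 110310, high for class II, overlapped the controls. The log2 fold change of Erap1 was 1.17 ± 0.22 (adjusted p = 0.000467).

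The non-classical class I genes did not move together. H2-Q10, whose product is secreted, had 0.710, 0.544, 0.783 and 0.267 FPKM in control mice and 4.52, 6.30, 5.42 and 4.24 FPKM in CKD mice, with no overlap. Its log2 fold change was 1.96 ± 0.22. H2-M2 (1.55), H2-M3, which presents formylated peptides (1.39), H2-Q2 (1.36) and H2-Q4 (1.08) were also higher on the log2 scale. H2-Q4 was not called after rescaling (0.49, adjusted p = 0.0766). H2-Q7 (0.54), H2-T24 (0.44) and H2-Q6 (0.17), and H2-T23, the Qa-1 gene whose product is a ligand of NK cell receptors (-0.24), did not pass. H2-T23 had 72.6, 75.4, 99.0 and 81.3 FPKM in control mice and 64.6, 64.6, 110.4 and 47.9 FPKM in CKD mice. Mouse 110310 was above every control mouse and the other 3 CKD mice were below every control mouse. H2-T23 was lower with the 3 mice that stood apart left out (-0.38, adjusted p = 0.0304), and after rescaling (-0.86, adjusted p = 0.0099).

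H2-T22, whose product is a ligand of gamma-delta T cells, was lower in CKD. It had 46.9, 43.3, 45.2 and 46.9 FPKM in control mice, 27.0, 34.5, 36.9 and 23.3 FPKM in CKD mice and 29.4, 31.4, 28.0 and 26.3 FPKM in CKD+Fe mice. The control mice were nearly alike, and each lay above all adenine-fed mice. The log2 fold change was -0.59 ± 0.14 (adjusted p = 0.00221), and -1.20 after rescaling. Of its 50-base windows, 34.5% occurred elsewhere in the transcripts, most of them in H2-T10, so the level could include reads of that gene. The same holds for the Q genes, with 16.1% (H2-Q2) to 32.0% (H2-Q6) of windows shared, and less so for H2-K1 (9.63%) and H2-D1 (12.8%). H2-Ke6, the dehydrogenase gene, was lower too (-0.86 ± 0.17, adjusted p = 0.000577), and 70.5% of its windows lay in the overlapping gene model Gm20427.

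**Figure D2:**
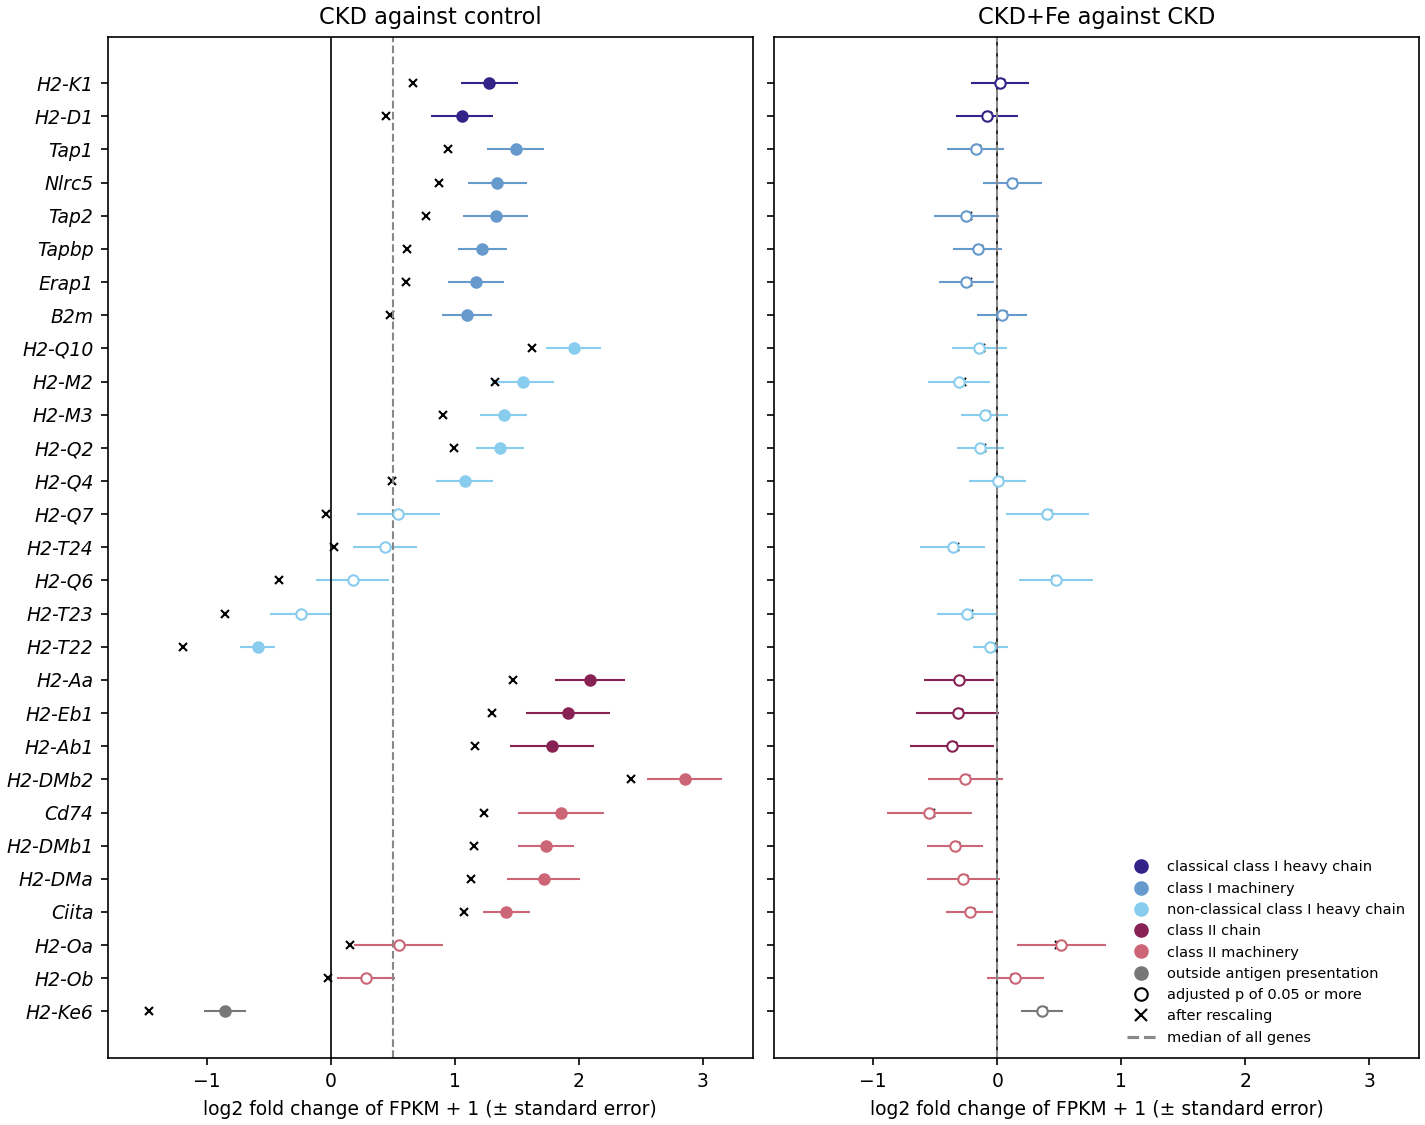
Log2 fold change of FPKM + 1 with its standard error for the 29 members tested, in CKD against control (left) and CKD+Fe against CKD (right). Filled points passed an adjusted p of 0.05, crosses give the value after rescaling and the dashed line is the median of all genes. On the left 23 points are filled, and on the right 0 are filled.

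Class II was contrasted with class I within each mouse, where scaling between mice all but cancels for genes this abundant. For the pairs H2-Aa to H2-K1 and Cd74 to B2m every CKD mouse lay above every control mouse, but no pair passed the correction for 18 ratio tests. The log2 ratio of H2-Aa to H2-K1 was 0.01, -0.09, 0.37 and 0.15 in control mice and 1.17, 1.10, 0.86 and 0.53 in CKD mice. The mean difference was 0.81 (exact two-sided permutation test, p = 0.0286, adjusted p = 0.103). That p is the smallest that 70 arrangements of 4 against 4 mice allow. For Cd74 to B2m the log2 ratio was -0.89, -0.61, -0.57 and -0.72 in control mice and -0.17, -0.26, 1.01 and -0.32 in CKD mice, a difference of 0.76 (exact permutation p = 0.0286, adjusted p = 0.103), or 0.44 without mouse 110310. For H2-Ab1 to H2-D1 the difference was 0.72, the groups overlapped (exact permutation p = 0.0857, adjusted p = 0.171), and CKD mouse 120102 was the low value at -0.10.

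The summed FPKM of class II members took 39.9% to 46.4% of the class I and class II sum in control mice, 50.1% to 67.8% in CKD mice and 48.0% to 56.1% in CKD+Fe mice. CKD mouse 110310 had the highest share and mouse 120102 the lowest share in CKD. The class II sum itself was 899 ± 253 FPKM in control mice and 3663 ± 1848 FPKM in CKD mice (SD, n = 4), a wide spread within CKD from 1799.7 to 6052 FPKM. The class I sum was 1178 ± 200 FPKM and 2430 ± 588 FPKM.

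**Figure D3:**
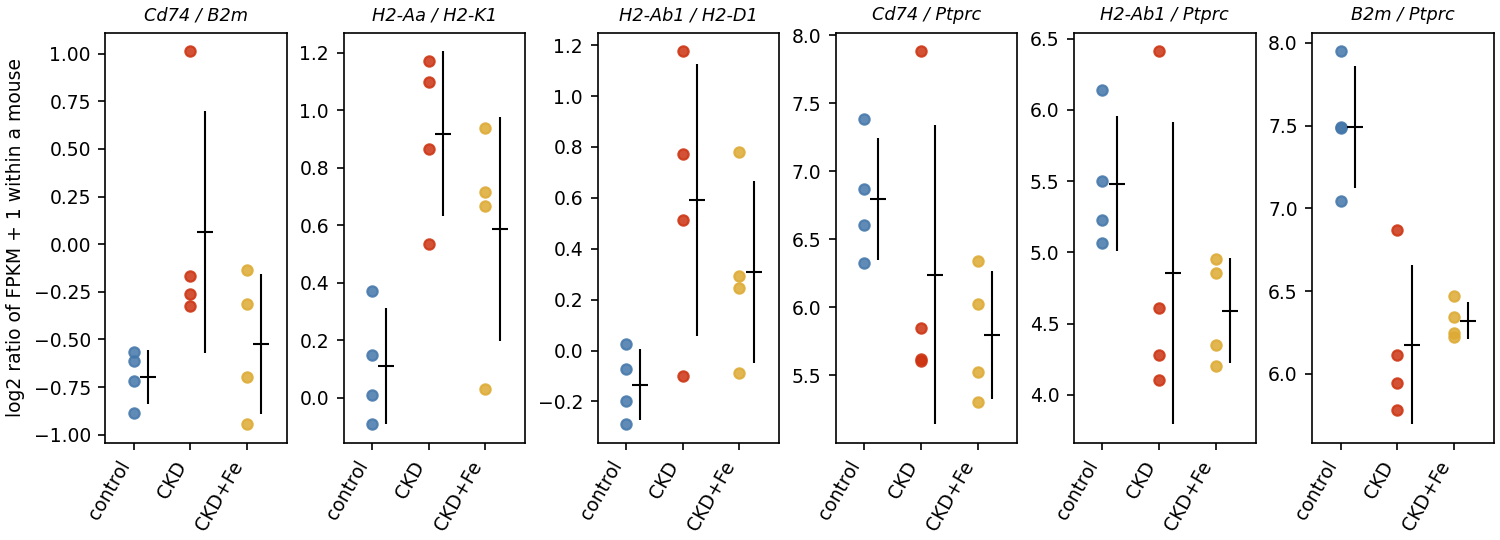
Log2 ratio of FPKM + 1 of 2 genes within a mouse, for 3 class II to class I pairs and for 3 members against Ptprc, with a point per mouse and the mean ± SD of 4 mice beside the points. H2-Aa to H2-K1 is 0.53 or more in CKD mice and 0.37 or less in control mice, while B2m to Ptprc is 6.87 or less in CKD mice and 7.04 or more in control mice.

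Markers of leukocytes were higher in the same mice. All 6 pan-leukocyte genes were higher in CKD, beside 54.6% of all genes, with a median log2 fold change of 2.56, and their summed level was 71.2 to 142 FPKM in control mice and 546 to 1066 FPKM in CKD mice. Of 9 macrophage genes 8 were higher (median 3.28), with sums of 133 to 255 FPKM and 1764 to 3660 FPKM. After rescaling 6 of the 6 pan-leukocyte and 8 of the 9 macrophage genes were higher. Of 7 dendritic cell genes tested 5 were higher (median 1.01), led by Itgax, an integrin that macrophages also express (3.01). The lowest value of the 7 was -0.80, not called. After rescaling 5 of the 7 were higher and 1 was lower, beside 27.2% and 31% of all genes. For B cells, Cd79b was higher (1.18), while Ms4a1 and Pax5 stayed at or under 0.433 FPKM in every mouse. Of 6 T cell genes 5 were higher (median 0.85), and after rescaling only Cd4 was. Of 5 endothelial genes 0 were higher and Kdr was lower (median -0.16). After rescaling 0 of the 5 were higher and 3 were lower (median -0.75). Of 7 genes of the kidney tubule and glomerulus 0 were higher and 3 were lower (Slc34a1, Lrp2 and Aqp2). The rest of the 7 were not called, and the median of the 7 was 0.43. After rescaling 0 of the 7 were higher and 3 were lower, with a median of -0.17. The part of cell composition in the members' levels was not tested.

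The members were also set against Ptprc (CD45, carried by leukocytes) of the same mouse. The log2 ratio of B2m to Ptprc was 7.49, 7.49, 7.95 and 7.04 in control mice and 5.78, 6.11, 6.87 and 5.94 in CKD mice, a difference of -1.32 without overlap (exact permutation p = 0.0286, adjusted p = 0.103). For Cd74 to Ptprc the difference was -0.56 (exact permutation p = 0.429) and for H2-Ab1 to Ptprc -0.63 (exact permutation p = 0.314), and both groups overlapped. The mouse that overlapped the controls was 110310, whose ratios of 7.88 and 6.41 were the highest of all 12 mice. Without it the differences were -1.10 and -1.15, and the other 3 CKD mice, at 5.85 or less and 4.61 or less, lay below every control mouse, at 6.32 or more and 5.07 or more.

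**Figure D4:**
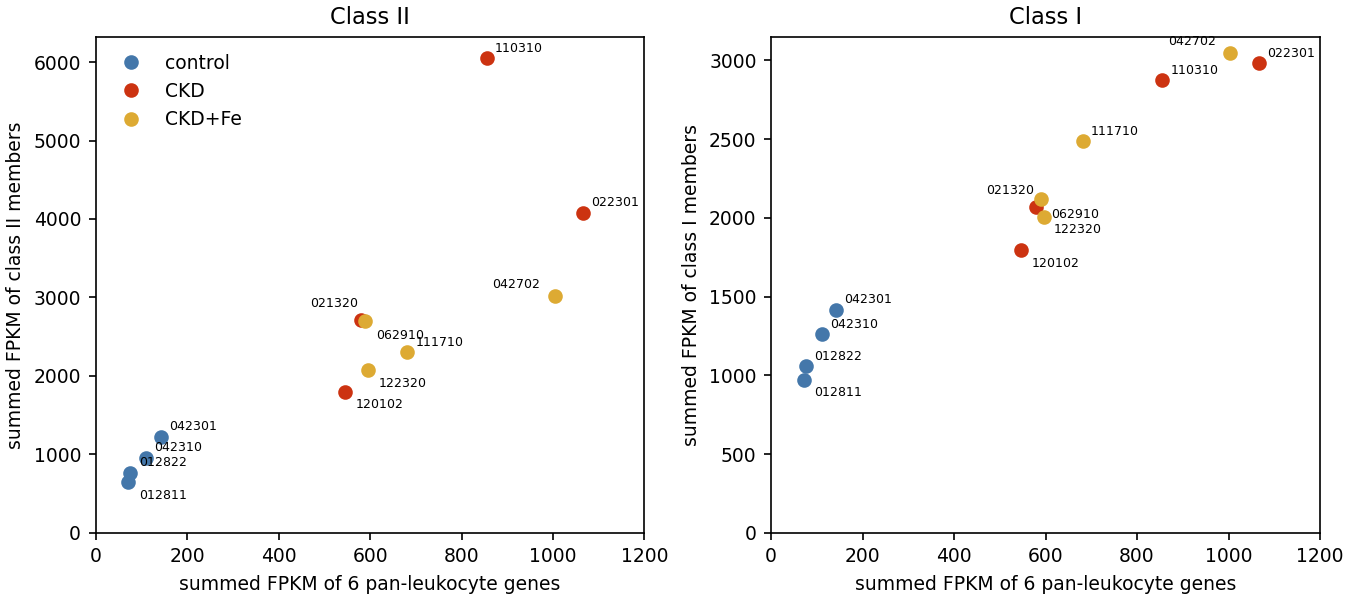
Summed FPKM of class II (left) and class I (right) members against the summed FPKM of 6 pan-leukocyte genes, with a point per mouse. CKD mouse 110310 has the highest class II sum, 6052 FPKM, at a leukocyte sum of 855 FPKM, below the 1066 FPKM of mouse 022301.

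The other genes of the path were followed by lists. Of 11 genes of class I peptide supply, 7 (63.6%) were higher in CKD and 1 lower, beside 54.6% and 13.3% of all genes. After rescaling 2 were higher (Lnpep and Psmb8) and 3 lower (Pdia3, Calr and Bcap31), beside 27.2% and 31% of all genes. The same shares of all genes, before and after rescaling, stand beside the calls of the other lists below. Lnpep, an aminopeptidase that trims cross-presented peptides (1.64 ± 0.43 on the log2 scale), rose most, closely followed by the immunoproteasome subunit Psmb8 (1.61 ± 0.24), and Bcap31, an export receptor of the endoplasmic reticulum, was lower (-0.43 ± 0.14). Of 9 genes of class II transcription and peptide supply 6 (66.7%) were higher, and after rescaling 3 were higher (Ctss, Rfx5 and March1) and 2 lower (March8 and Rfxank). Ctss, the cathepsin that cuts the invariant chain, rose most, by 4.12 ± 0.27 on the log2 scale from 24.3 ± 7.18 to 440.3 ± 135 FPKM, and March8, a ligase that removes class II from the surface, had the lowest value (-0.16, not called). Of 7 class I-like genes outside H2, 5 were higher, with Mr1, which presents vitamin B metabolites, first (1.63), and Azgp1 was lower (-4.13). After rescaling 5 were higher and 2 lower.

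Interferon-gamma, an inducer of both classes, was listed at no more than 0.212 FPKM in any mouse. Of 8 genes of its path 6 were higher (5 after rescaling), with the receptor chain Ifngr1 first (1.99 ± 0.16). Irf2 had the lowest value (0.42, not called). Of 6 co-stimulation genes tested all 6 were higher (4 after rescaling), from Cd274 (0.91) to Cd83 (2.26 ± 0.25). The medians of the 5 lists in CKD ranged from 0.72 to 1.54, beside 0.50 for all genes, and after rescaling from 0.097 to 1.25, beside -0.03.

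To see whether iron dextran changed these genes in CKD, CKD+Fe mice were compared with CKD mice. With limma, 0 of the 29 members passed at an adjusted p of 0.05, where 0.00761% of all genes were called higher and 0% lower. Without adjustment 0 members passed as well, where 3.28% of all genes were higher and 2.73% lower. The groups overlapped for all 29 members, while in 1.35% of all genes every CKD+Fe mouse lay above every CKD mouse and in 1.09% below. The median log2 difference was -0.29 over 10 class II members and -0.12 over 18 class I members, beside -0.0005 over all genes.

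Of the 10 class II members 8 had a value below 0, as had 12 of the 18 class I members. Cd74 had the lowest (-0.55 ± 0.35, adjusted p = 0.916, exact permutation p = 0.257), and without the 3 mice that stood apart it was -0.38. H2-Ab1 differed by -0.37 ± 0.34, H2-DMb1 by -0.34 ± 0.23, H2-Eb1 by -0.32 ± 0.34 and H2-Aa by -0.31 ± 0.28. H2-DMa (-0.27), H2-DMb2 (-0.26) and Ciita (-0.22) lay nearer to 0. Leaving out CKD mouse 110310 alone moved most of these values toward 0. The difference was then -0.19 for Cd74 and H2-DMb1, -0.036 for H2-Ab1, -0.031 for H2-Eb1, -0.16 for H2-Aa and 0.00036 for H2-DMa, and the class II median was -0.099. H2-Oa had the highest value of all members (0.52 ± 0.36), with 6.07, 4.94, 3.19 and 2.98 FPKM in CKD+Fe mice, and H2-Ob had 0.14 ± 0.23. A p above the threshold does not show that levels were equal.

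Class I members lay around 0. H2-K1 differed by 0.02 ± 0.23, B2m by 0.04 ± 0.20, H2-D1 by -0.08 ± 0.25 and Nlrc5 by 0.12 ± 0.24 on the log2 scale. Tap2 and Erap1 (both -0.25), Tap1 (-0.17), Tapbp (-0.16), H2-T22 (-0.06) and H2-Q4 (0.0045) did not pass either. H2-Q6 (0.47 ± 0.30) and H2-Q7 (0.40 ± 0.33) were highest, and H2-T24 (-0.36 ± 0.26), H2-M2 (-0.31) and H2-T23 (-0.24) lowest, with H2-Q10 (-0.15), H2-Q2 (-0.14) and H2-M3 (-0.10) between them. H2-Ke6 differed by 0.36 ± 0.17 (adjusted p = 0.835, exact permutation p = 0.0571).

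Within a mouse, the ratio of Cd74 to B2m differed by -0.59 between CKD+Fe and CKD (exact permutation p = 0.2), that of H2-Aa to H2-K1 by -0.33 (exact permutation p = 0.229) and that of H2-Ab1 to H2-D1 by -0.28 (exact permutation p = 0.429). The last was 0.04 without the 3 mice that stood apart, and that of Cd74 to B2m was -0.27 without CKD mouse 110310. None of the genes in the 5 lists was called. Leukocyte sums were 589 to 1004 FPKM in CKD+Fe mice, within the range of CKD mice.

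CKD+Fe mice were also set against control mice, which shares its mice with the comparisons above. Of the 29 members 23 were higher and 2 lower, beside 54.4% of all genes higher and 11% lower. In 22 members every CKD+Fe mouse lay above every control mouse, as in 50.4% of all genes, and in 1 (H2-T22) below, as in 9.85%. Class II had 9 of 10 members higher with a median of 1.40, where CKD had a median of 1.76. Class I had 14 of 18 higher and 1 lower with a median of 1.08, where CKD had 1.19. After rescaling, 6 class II members and 8 class I members were higher and 2 class I members lower, against 26.1% of all genes higher and 29.3% lower.

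Class II chains in CKD+Fe mice were higher than in control mice by 1.78 ± 0.28 for H2-Aa, 1.59 ± 0.34 for H2-Eb1 and 1.41 ± 0.34 for H2-Ab1 on the log2 scale, and Cd74 by 1.31 ± 0.35. H2-Ab1 (0.81, adjusted p = 0.0632) and Cd74 (0.70, adjusted p = 0.109) were not called after rescaling. H2-Oa, not called in CKD, was higher (1.06 ± 0.36, adjusted p = 0.018), and so was H2-Q7 (0.95 ± 0.33, adjusted p = 0.0233). Neither was called after rescaling, without CKD+Fe mouse 042702 or without control mouse 012811, and H2-Q7 was not called without CKD+Fe mouse 111710 either. B2m (1.14), H2-K1 (1.30), H2-D1 (0.97), Tap1 (1.32) and Nlrc5 (1.46) were higher and H2-T22 lower (-0.65 ± 0.14, adjusted p = 0.00131). After rescaling H2-D1 (0.36, adjusted p = 0.219) was not called, nor were Erap1, H2-Q4, Tap2 and Tapbp, and H2-T23 was called lower (-1.09, adjusted p = 0.00246). Under quantile normalization Ciita, Erap1, H2-M2, H2-Oa, H2-Q2, H2-Q7 and Tap2 were not called. H2-Ke6 was lower (-0.50 ± 0.17, adjusted p = 0.019), and was not called without control mouse 042301 or without CKD+Fe mouse 111710. The log2 ratio of H2-Ab1 to Ptprc was lower in every CKD+Fe mouse than in every control mouse (-0.89, exact permutation p = 0.0286, adjusted p = 0.103), and so was that of B2m to Ptprc (-1.17, exact permutation p = 0.0286, adjusted p = 0.103).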

How the data were processed

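Total RNA of whole kidneys was made into stranded mRNA libraries, 1 per mouse, which were sequenced as single-end reads of 50 bases. The authors' processing notes name bcl2fastq 2.19, STAR 2.5.2 and Cufflinks 2.1.1 and the build GRCm38. The authors deposited FPKM values, 1 per gene and mouse, and 30 values marked as failed were treated as missing (none in members). Depth in reads is unknown. The most common ratio of low FPKM to control mouse 012811, held by 8 to 25 of 486 to 718 genes, put the other mice at depths of 0.685 to 0.892 of that mouse, a rough estimate.

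FPKM are not counts, so log2(FPKM + 1) was fitted with limma 3.58.1 (R 4.3.3; variance trend, all 12 mice in 1 fit) over the 13148 genes that reached 1 FPKM in 4 or more mice, two-sided, with Benjamini-Hochberg adjustment and a threshold of 0.05. Fits were tested on simulated data. Ratios within a mouse were tested by exact permutation. All 42 members matched GENCODE M21 on GRCm38 by identifier and name. Every tested member was named, and from each list the genes with the largest rise and fall. Values per mouse or their range were written out for class II members, classical class I chains, B2m, class I loading genes and regulators. Among non-classical genes they were written out for H2-T22, H2-T23 and H2-Q10. Alternatives were another pseudocount, filter, scaling, weighting, trend and set of mice. Members and lists were chosen with earlier results of these data known.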

Additional observations from a re-analysis of the deposited data

Results flagged for a closer look

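In each group of 4 mice, the highest or lowest value of each tested member was compared with the rest of its group (Dixon's criterion at 95%). Of 87 groups 6 passed, and chance flags about 1 in 20 groups. In 4 of them CKD+Fe mouse 042702 was far above the other 3 mice, with 116 FPKM for Tapbp (next 78.4), 537 FPKM for H2-D1 (next 293), 44.2 FPKM for H2-Q4 (next 26.5) and 10.5 FPKM for H2-M3 (next 6.89), all class I members. In this mouse the pan-leukocyte sum of 1004 FPKM was also the highest of its group, and its part in these values was not tested. Ciita was high in control mouse 042310, with 1.26 FPKM against 0.588 FPKM in the next mouse. H2-Q6 was low in control mouse 012811, with 13.8 FPKM against 23.5 FPKM in the next mouse.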

How the results depend on the processing

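The calls of members in CKD against control numbered 17 (of the 22 with a mean of at least 5 FPKM) to 23 higher and 2 to 3 lower over 21 alternatives, and 0 members were called in CKD+Fe against CKD under any of them. Without a filter, after median-of-ratios rescaling or without the 3 mice that stood apart, 2 class I members were lower in CKD in place of 1. In CKD+Fe against control, rescaling left 14 members higher, 8 of them in class I, and quantile normalization left 9 class I members higher. In that comparison 2 class I members were lower without a filter, with rescaling, quantile normalization or array weights, and without the 3 mice. Leaving out each mouse in turn gave 1 to 2 class I members and 1 to 3 members lower. The ratio of H2-Ab1 to H2-D1 in CKD+Fe against CKD turned to 0.044 and that of H2-Ab1 to Ptprc to 0.138 without the 3 mice. Over single mice left out, the latter ran from -0.51 to 0.26 and that of Cd74 to Ptprc from -0.65 to 0.11. With a pseudocount of 0.1 the ratio of Cd74 to Ptprc in CKD+Fe against control was -1.40 (exact permutation p = 0.0286). The causes were not tested.

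Some directions turned, all in values that did not pass the test as reported. In CKD against control, rescaling gave -0.027 for H2-Ob, -0.42 for H2-Q6 and -0.042 for H2-Q7, and quantile normalization gave -0.25 for H2-Oa, -0.47 for H2-Ob, -0.17 for H2-Q6 and -0.39 for H2-T24. In CKD+Fe against CKD, quantile normalization gave -0.029 for B2m and -0.046 for H2-K1, array weights gave 0.047 for H2-Q10, -0.019 for H2-Q4 and 0.034 for H2-T22, and leaving out the 3 mice gave 0.11 for H2-Q10, -0.071 for H2-Q4 and 0.032 for H2-T22. In CKD+Fe against control, quantile normalization gave -0.36 for H2-Ob and -0.74 for H2-T24 (limma, adjusted p = 0.022), rescaling gave -0.31 for H2-T24, and leaving out the 3 mice gave -0.069. With each mouse left out in turn, H2-Q6 ran from -0.022 to 0.36 in CKD against control and H2-T24 from -0.052 to 0.20 in CKD+Fe against control. In CKD+Fe against CKD the ranges were -0.10 to 0.18 for B2m, -0.34 to 0.053 for H2-D1, -0.47 to 0.00036 for H2-DMa, -0.14 to 0.19 for H2-K1, -0.25 to 0.021 for H2-M3, -0.071 to 0.31 for H2-Ob, -0.28 to 0.086 for H2-Q10, -0.20 to 0.13 for H2-Q4, -0.17 to 0.042 for H2-T22 and -0.071 to 0.34 for Nlrc5. The number of reads behind a value is unknown, which limits members near 1 FPKM most. No paired analysis was made, because each mouse belonged to a single group and the labels pair no mice.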
